A study of Macaca mulatta with 6 samples.

Results

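The D-type cyclins, their partner kinases CDK4 and CDK6, and the inhibitors that bind these kinases were followed by name in bulk RNA sequencing. The libraries came from rhesus monkey cultures that the study names spermatogonial stem cells (SSCs). The members were picked by gene name, with earlier results of these data known. Of 10 names, 7 were analysed here among the 17795 genes of the table: CCND1, CCND2, CCND3, CDK4, CDK6, CDKN1C and CDKN2C. CDKN1A, CDKN1B and CDKN2B were not analysed here. Libraries from cultures with platelet-derived growth factor (SSC PDGF+, n = 3) were compared with libraries from PDGF-free cultures (SSC PDGF-, n = 3). Each group had 1 library in batch 1 (replicate 1) and 2 in batch 2 (replicates 2 and 3). The study's methods describe 3D culture in droplets of basement membrane extract, while its results name a collagen-PDGF hydrogel. Which description applies to these libraries is not stated in the sources used here. The medium in the methods contains serum and other mitogens (GDNF, EGF, bFGF, LIF and Wnt3a). Donor, age and culture duration are not given for these libraries in the sources used here, nor is it said whether replicates 2 and 3 are separate cultures, so the p-values measure the spread between libraries, which may be technical.

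Cell cycle entry depends on D-type cyclins, which growth factors induce during G1 and which activate CDK4 and CDK6. The active kinases phosphorylate the retinoblastoma protein RB1 and its relatives, which releases E2F transcription factors and with them the genes of DNA replication. INK4 inhibitors such as CDKN2C (p18) bind CDK4 and CDK6 and keep cyclins from them, while CIP/KIP inhibitors such as CDKN1C (p57) bind cyclin-kinase complexes and act above all on later ones. In the testis, D cyclins accompany the proliferation of spermatogonia and somatic cells, and CDKN1C, an imprinted gene, is known from growth-arrested and differentiating cells.

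The 3 D cyclins share the short L-x-C-x-E peptide through which they bind the RB1 pocket, and the first 30 bases of each coding sequence are shown because they carry it. The sequences come from RefSeq transcripts of the Mmul_10 annotation, and capitals mark the 5 codons of the motif, codons 5 to 9 in CCND1 and codons 3 to 7 in CCND2 and CCND3.
CCND1: atggaacaccagCTCCTGTGCTGCGAAgtg
CCND2: atggagCTGCTGTGCTGCGAGgtggacccg
CCND3: atggagCTGCTGTGTTGCGAAggcacccgg
The reading frames are 295, 289 and 292 codons long, in this order.

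Total counts ran from 10593804 to 14102695 per library and were higher in each SSC PDGF+ library than in any SSC PDGF- library. Levels are CPM, the counts of a gene scaled to a common library size with TMM factors. Tests are edgeR's quasi-likelihood test over the 11539 genes that passed its count filter, with a Benjamini-Hochberg adjusted p under 0.05 as the threshold. Differences are given as LFC, the log2 of the level with PDGF over the level without, with its standard error (SE). The germ cell label was checked against its markers. Of 11 germ cell markers 8 were analysed, and ID4 stood at 127 to 177 CPM and FGFR3 at 7.16 to 81.8 CPM, whereas DDX4 and DAZL, which define germ cells, reached at most 3.64 and 1.27 CPM in any library. The fibroblast markers summed to 14090 to 19410 CPM with PDGF and 16950 to 19130 CPM without. DDX4 and DAZL at these levels do not bear out the label, so the values below are those of whole cultures, not of SSCs alone. In bulk samples, fewer cells of a type and less RNA per cell cannot be told apart.

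CCND1 was higher with PDGF, as was the count row that CCND2 shares with its neighbour TIGAR. CDK4 was slightly lower and CDKN1C was far lower, while CCND3, CDK6 and CDKN2C did not pass the threshold. All 7 passed the count filter. In the Mmul_10 annotation CCND1 overlaps LTO1 on the opposite strand, and CCND2, CCND3 and CDK6 overlap uncharacterized loci, so some of their reads may belong to these. Of the 7, 2 were higher, where 7.61% of all genes tested were higher, and 2 were lower, where 10.7% of all genes tested were lower.

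**Figure D1:**
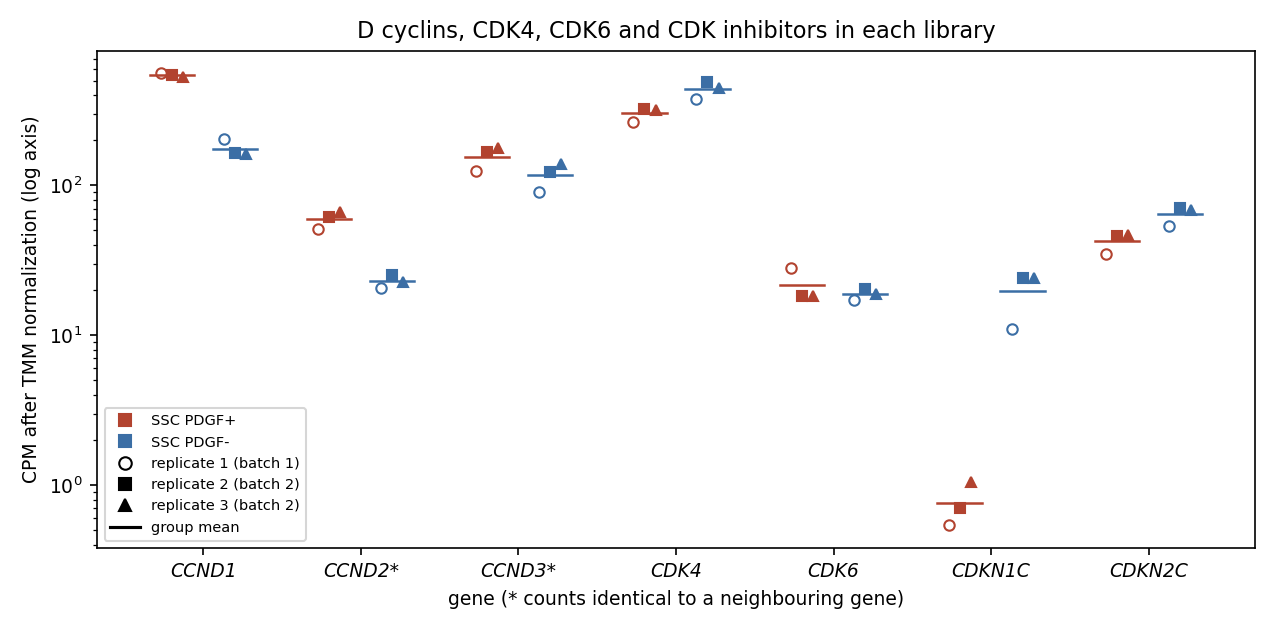
Level of each gene in each library, in CPM after TMM normalization on a log axis, with SSC PDGF+ in red and SSC PDGF- in blue; marker shapes give the replicate, open markers batch 1, bars the group mean, and an asterisk marks a gene whose counts equal those of a neighbouring gene. The groups are separate for CCND1, CCND2, CDK4, CDKN1C and CDKN2C and overlap for CCND3 and CDK6. Separate groups were also seen for other genes that did not pass, such as TFDP1 and TYMS. The share of such genes among all genes was not counted. Separation, here and in the text below, therefore only describes the libraries.

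Among the D cyclins, CCND1, the cyclin most often named as a growth factor target, stood at 558.4, 541 and 529 CPM in SSC PDGF+ replicates 1, 2 and 3. In SSC PDGF- replicates 1, 2 and 3 it stood at 202, 164 and 162 CPM. Every library with PDGF was above every library without, and the replicates with PDGF lay close together. The means were 543 ± 14.6 CPM and 176 ± 22.7 CPM (SD, n = 3 each), a 3.09-fold higher level (LFC 1.63, SE 0.14, edgeR adjusted p = 2.7e-04). The gene ranked at place 168 from the top by LFC among the 11539 tested. Within batch 1 the LFC was 1.47 and within batch 2 it was 1.72. The call was kept in all 6 fits that omit a single library (edgeR adjusted p up to 0.0034).

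CCND2, a D cyclin known for its part in spermatogonial and granulosa cell proliferation, was at 50.8, 61.4 and 66.6 CPM with PDGF and at 20.6, 25.4 and 22.7 CPM without. Here too the groups did not overlap. The LFC was 1.38 (SE 0.17, edgeR adjusted p = 0.0015), with 1.30 in batch 1 and 1.41 in batch 2, and it stayed past the threshold without any 1 library (edgeR adjusted p up to 0.012). The counts of this row equalled those of TIGAR, the next gene on the same strand in the Mmul_10 annotation, in all 6 libraries. TIGAR encodes a metabolic phosphatase. The reads cannot be assigned to either gene, and the higher level is that of the pair.

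CCND3, the D cyclin with the widest tissue distribution, was at 124, 166 and 176 CPM in SSC PDGF+ replicates 1, 2 and 3 and at 90.5, 124 and 139 CPM in SSC PDGF- replicates 1, 2 and 3. Each library with PDGF exceeded its same-numbered partner, but the groups overlapped, and replicate 1 was the lowest in both. The LFC was 0.40 (SE 0.20, edgeR adjusted p = 0.21), 0.45 in batch 1 and 0.38 in batch 2. Blocking on the replicate number left the value at 0.40 and brought it past the threshold (edgeR adjusted p = 1.6e-06). Correction for GC content and gene length on top of the block gave 0.75 (edgeR adjusted p = 2.4e-10), using the GC content and length of CCND3 alone. The row is shared with another gene, so this value may not describe its reads. Under the same correction the row shared by CCND2 and TIGAR had an LFC of 1.28 as CCND2 and 1.54 as TIGAR. The counts of CCND3 were identical to those of MED20, which encodes a subunit of the Mediator complex and lies beyond BYSL on the same strand as CCND3. BYSL, on the opposite strand between them, had counts of its own and an LFC of 0.46 (edgeR adjusted p = 0.12).

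Of the 2 kinases, CDK4 was at 264, 324 and 319 CPM with PDGF and at 378, 485 and 449 CPM without. All libraries with PDGF were below all libraries without, and replicate 1 was the lowest of each group. The means of 302 ± 33.3 and 437 ± 54.7 CPM (SD, n = 3 each) gave an LFC of -0.53 (SE 0.15, edgeR adjusted p = 0.041), with -0.52 in batch 1 and -0.54 in batch 2. This call was kept in 1 of the 6 fits with a library left out: omitting SSC PDGF- replicate 1 gave an adjusted p of 0.014, and omitting any SSC PDGF+ library, or replicate 2 or 3 of SSC PDGF-, gave 0.086 to 0.17. It was called with the replicate number as a block, but adding GC content and gene length to that fit brought the LFC to -0.14 (edgeR adjusted p = 0.0089). CDK4 overlaps TSPAN31 on the opposite strand in the Mmul_10 annotation, and no source used here says whether the counting used strand. TSPAN31 itself had an LFC of -0.06, which did not pass (edgeR adjusted p = 0.83).

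CDK6, which can take the place of CDK4 in many cells, was at 28.3, 18.1 and 18.3 CPM with PDGF and at 17.2, 20.2 and 18.9 CPM without. The groups overlapped, and SSC PDGF+ replicate 1 stood above the other 5 libraries. The LFC was 0.20 (SE 0.22, edgeR adjusted p = 0.55), and 2 SEs on either side reach from -0.23 to 0.64. Batch 1 gave 0.72 and batch 2 gave -0.10. Without SSC PDGF+ replicate 1 the LFC was -0.03 (edgeR adjusted p = 0.93), so no direction can be given for this kinase.

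CDKN1C, the CIP/KIP inhibitor p57, was the member that changed most. It had 8, 9 and 14 counts in SSC PDGF+ replicates 1, 2 and 3, or 0.540, 0.704 and 1.05 CPM. In SSC PDGF- it had 133, 251 and 245 counts, or 10.9, 24.0 and 24.0 CPM. No library with PDGF came near the lowest library without, which was replicate 1 of batch 1. The means were 0.765 ± 0.261 and 19.7 ± 7.56 CPM (SD, n = 3 each), a 25.5-fold lower level with PDGF (LFC -4.67, SE 0.42, edgeR adjusted p = 3.8e-04). Among the 11539 genes tested, CDKN1C ranked at place 31 from the bottom by LFC. Batch 1 gave -4.26 and batch 2 gave -4.74. Omitting single libraries kept the LFC between -4.97 and -4.45 (edgeR adjusted p up to 0.0028).

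CDKN2C, the INK4 inhibitor p18, was at 34.6, 46.1 and 46.4 CPM with PDGF and at 53.4, 70.5 and 68.7 CPM without. The groups did not overlap, and replicate 1 was again the lowest in both. The LFC of -0.60 (SE 0.18, edgeR adjusted p = 0.057) did not pass the threshold, and was -0.62 in batch 1 and -0.59 in batch 2. Blocked on the replicate number it was -0.60 and passed (edgeR adjusted p = 5.9e-07), and with GC content and gene length added it was -0.36 (edgeR adjusted p = 3.2e-04). Without a block it passed when SSC PDGF- replicate 1 was omitted (LFC -0.73, edgeR adjusted p = 0.019), with upper quartile factors or no normalization factors (edgeR adjusted p = 0.032 and 0.045), and with DESeq2 (adjusted p = 0.030). CDKN2D, the INK4 inhibitor p19, was at 20.9 ± 4.09 CPM with PDGF and 16.8 ± 4.79 CPM without (SD, n = 3 each), an LFC of 0.32 (edgeR adjusted p = 0.43, or 0.027 with the replicate block). CDKN2A was not analysed here.

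**Figure D2:**
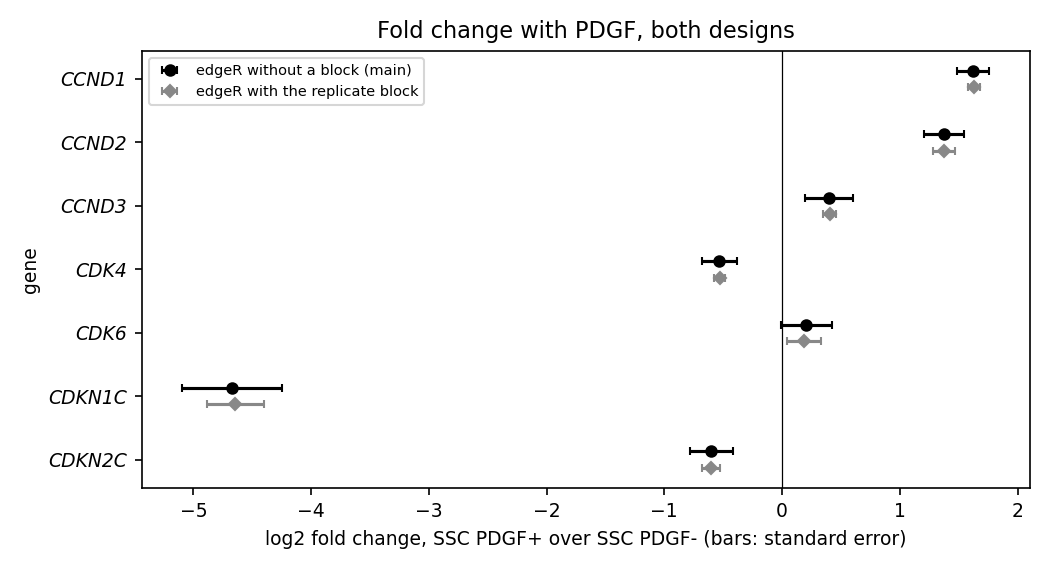
LFC (log2) of SSC PDGF+ over SSC PDGF- for each gene, with the SE as bars, from edgeR without a block (circles) and with replicate blocks (diamonds). Both designs gave nearly the same fold changes, from -4.67 for CDKN1C to 1.63 for CCND1 without the block, and the block narrowed the error of all 7 genes.

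Under the replicate block, 3 of the 7 members were higher (CCND1, CCND2 and CCND3) and 3 were lower (CDK4, CDKN1C and CDKN2C). Of the 3 higher, only CCND1 has counts of its own, as CCND2 shares its row with TIGAR and CCND3 with MED20. This fit called 31.1% of all genes tested higher and 29% lower, so a call under the block is common in this table. The fold changes of the members hardly moved between both designs, for instance 0.40 and 0.40 for CCND3 or -0.60 and -0.60 for CDKN2C.

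**Figure D3:**
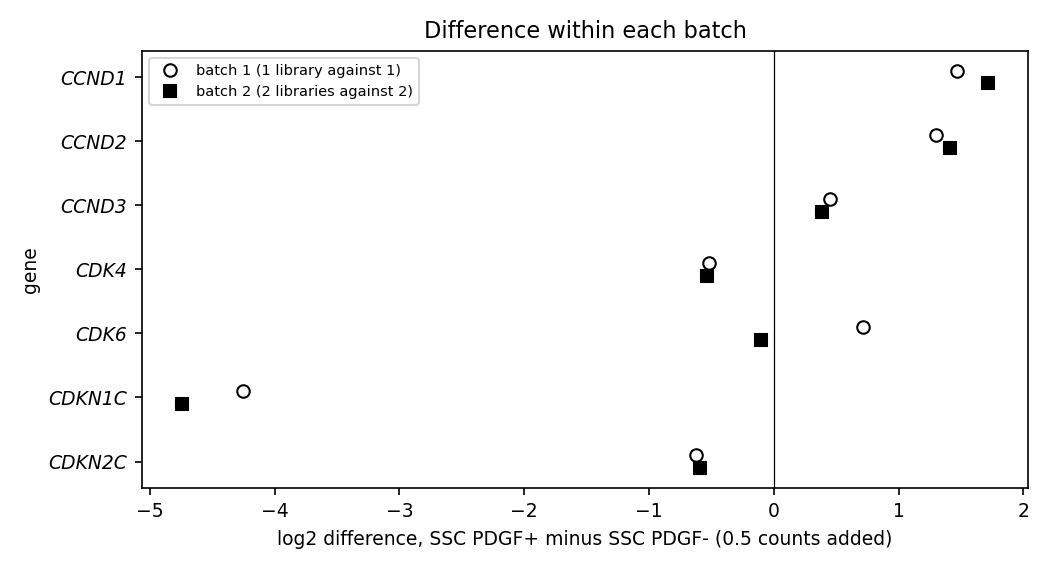
Log2 difference between SSC PDGF+ and SSC PDGF- within batch 1 (open circles, 1 library against 1) and within batch 2 (squares, means of 2 libraries against 2), with 0.5 counts added. The direction was the same in both batches for all genes but CDK6, which was at 0.72 in batch 1 and at -0.10 in batch 2.

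Levels of the 5 members with counts of their own were also set against each other per kilobase of exon, using RefSeq exon lengths of Mmul_10, which may not be the gene models the reads were counted on. With PDGF the order of the mean levels was CDK4 at 220 ± 24.2, CCND1 at 128 ± 3.44, CDKN2C at 14.2 ± 2.24, CDK6 at 1.66 ± 0.446 and CDKN1C at 0.379 ± 0.130 CPM per kb (SD, n = 3 each). Without PDGF it was CDK4 at 318 ± 39.7, CCND1 at 41.5 ± 5.36, CDKN2C at 21.5 ± 3.16, CDKN1C at 9.74 ± 3.75 and CDK6 at 1.44 ± 0.117 CPM per kb. No neighbours in either order overlapped in their library ranges. CDKN1C was below CDK6 in every library with PDGF and above it in every library without. CDK4 made up 98.9% to 99.4% of the summed per-kb level of both kinases with PDGF and 99.5% to 99.6% without, and on CPM without length 90.3% to 94.7% and 95.7% to 96.0%. CDKN1C made up 2.25%, 2.21% and 3.24% of the summed per-kb level of CDKN1C and CDKN2C in SSC PDGF+ replicates 1, 2 and 3, against 23.2%, 33.5% and 34.04% in SSC PDGF- replicates 1, 2 and 3. On CPM without length the shares of CDKN1C averaged 1.75% and 22.8%.

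Cell type markers moved alongside some of these genes. Of 6 spermatid markers 4 were analysed (TNP1, TNP2, ACRV1 and SPACA1), and they summed to 48.1, 75.9 and 61.7 CPM with PDGF and to 415, 640 and 681 CPM without, with 2 of the 4 tested and both lower. Replicate 1 was the lowest library of its group for CDKN1C and for the spermatid sum, with and without PDGF. The same held for CCND2, CCND3, CDK4 and CDKN2C and for the germ cell, Sertoli, Leydig, peritubular myoid, fibroblast and epithelial sums. In SSC PDGF+ replicates 2 and 3, CDKN1C was at 0.704 and 1.05 CPM and the spermatid sum at 75.9 and 61.7 CPM. Peritubular myoid markers, 5 of 5 tested with 2 lower, summed to 369 to 478 CPM with PDGF and 696 to 908 CPM without. Epithelial markers, 4 of 5 tested with 3 lower, summed to 35.6 to 51.9 and 87.3 to 122 CPM. Of all genes tested 10.7% were lower, and these lists are short. Few genes carried each sum: TNP1 and TNP2 for spermatids, ACTA2 and TAGLN for myoid cells, and PAX8 and KRT18 for epithelial cells. Of the less abundant myoid markers, DES was at 2.90 to 4.14 CPM with PDGF and 26.5 to 38.4 CPM without. MYH11 overlapped between the groups, at 4.9 to 8.0 and 7.1 to 8.3 CPM. STAR made up most of the Leydig sum and GATA4 most of the Sertoli sum. Germ cell markers, 4 of 8 tested with 2 lower, summed to 136 to 152 CPM with PDGF and 178 to 262 CPM without. ID4 and FGFR3 made up nearly all of this sum, and the other 6 markers (DDX4, DAZL, MAGEA4, GFRA1, ZBTB16 and SALL4) were each at 3.64 CPM or less in every library. Sertoli, Leydig, fibroblast, endothelial and myeloid sums had overlapping ranges, with 1 of 4 Leydig markers tested (IGF1) and 2 of 7 fibroblast markers (COL3A1 and PDGFRA) lower. COL3A1 was at 2757 to 2931 CPM with PDGF and 5809 to 6258 CPM without, PDGFRA, whose counts equal those of FIP1L1, at 505 to 633 and 726 to 963 CPM, and COL1A1, which did not pass, at 4088 to 8241 and 2723 to 5422 CPM. The T cell marker CD3E was at 0 counts in all libraries, and PTPRC of the myeloid and CYP11A1 of the Leydig list were at 0 as well. The part of these markers in the values of CDKN1C, CDK4 and CDKN2C was not tested.

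**Figure D4:**
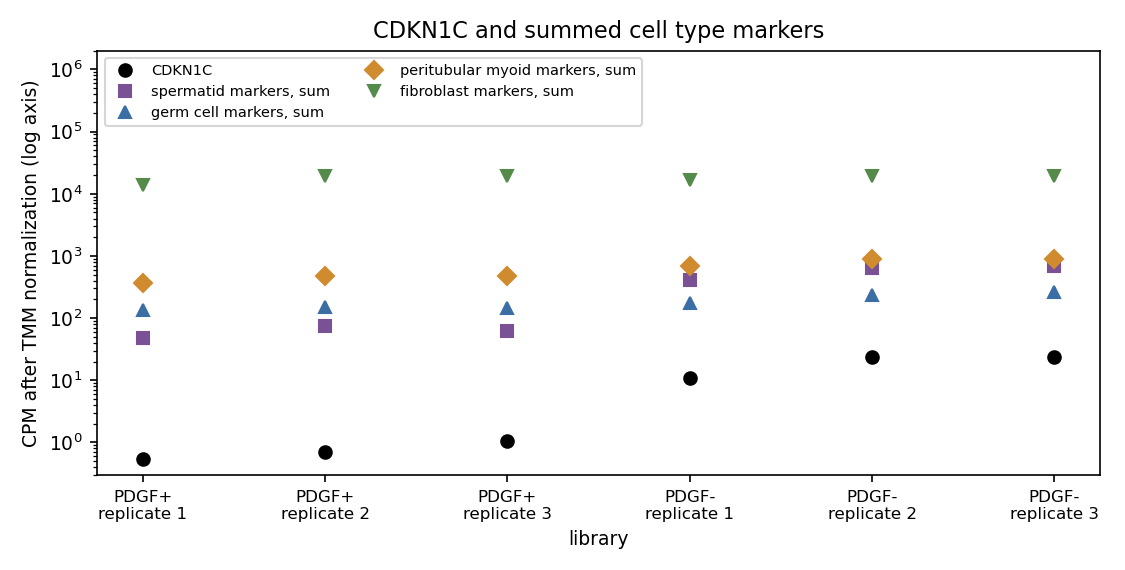
CDKN1C and the summed levels of 4 marker lists in each library, in CPM after TMM normalization on a log axis. CDKN1C rises from between 0.540 and 1.05 CPM with PDGF to between 10.9 and 24.0 CPM without, and the spermatid sum from between 48.1 and 75.9 to between 415 and 681 CPM, while the fibroblast sum overlaps between the groups.

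Profiles over the 6 libraries were compared by the Euclidean distance of centred log2(CPM + 1) values, as a description only. Closest to CCND1 among 7200 genes were TMEFF2 at a distance of 0.117, SLC20A1 at 0.174 and ENDOD1 at 0.201. Their LFC values were 1.56, 1.72 and 1.82. SLC20A1 encodes a phosphate transporter. Closest to CDKN1C among 7201 genes were ODF1 at 0.663, ACTRT2 at 0.666 and C2H3orf22 at 0.673, with LFC values of -3.40, -3.40 and -3.70. Candidates had an average log2 CPM of at least 4, which CDKN1C itself did not reach, so genes at its own level were left out. The 3 genes averaged 2.80 to 5.09 CPM with PDGF and 36.3 to 53.6 CPM without. Their distances were larger than those for CCND1, and their LFC values were smaller in size than that of CDKN1C. ODF1 encodes a protein of the sperm tail and ACTRT2 an actin-related protein of sperm.

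The other genes of G1 control came from fixed lists of 99 names, of which 86 were analysed here and tested. Of these, 8 (9.3%) were higher with PDGF and 6 (6.98%) lower, near the 7.61% and 10.7% of all genes tested, with a median LFC of 0.11 beside 0.02. The 8 include TIGAR, whose row is already counted above as CCND2, and HSP90AB1 and FAS, which share their rows with other genes. Under the replicate block 35 (40.7%) were higher and 20 (23.3%) lower, beside 31.1% and 29% of all genes tested. E2F7, RB1, E2F2 and FOXO1 had the largest changes among the called genes with counts of their own.

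**Figure D5:**
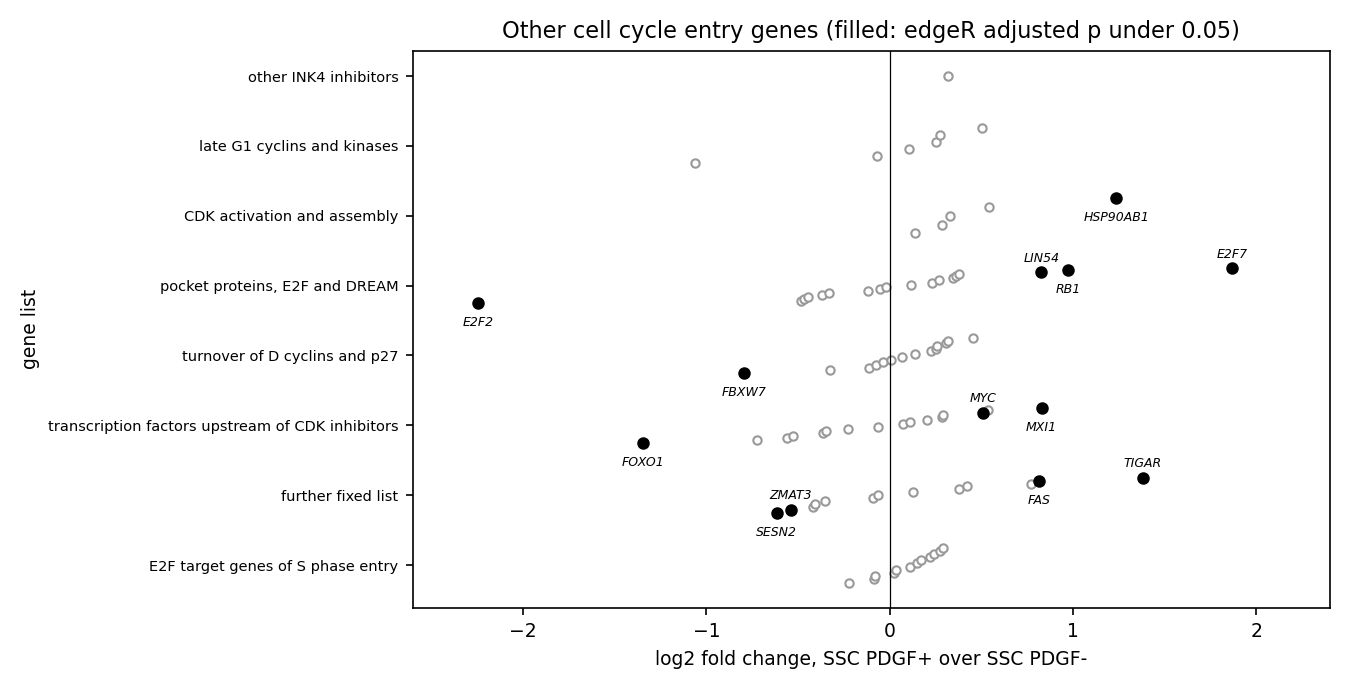
LFC (log2) of SSC PDGF+ over SSC PDGF- for 85 of the 86 other genes, by list; filled and named points passed an edgeR adjusted p of 0.05. The E2F target genes and the late G1 cyclins and kinases hold no filled point, and the largest values are those of E2F7 (1.87) and E2F2 (-2.25).

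Among 18 pocket protein, E2F and DREAM complex genes, 3 were higher and 1 was lower. Of all genes tested, 7.61% were higher and 10.7% lower, and the list is short. E2F7, an atypical E2F that represses E2F targets, was at 190 ± 36.4 CPM with PDGF and 52.1 ± 5.20 CPM without (SD, n = 3 each; LFC 1.87, SE 0.18, edgeR adjusted p = 4.4e-04). RB1, the main substrate of the D cyclin kinases, was at 60.2 ± 14.9 and 30.6 ± 4.43 CPM (LFC 0.97, edgeR adjusted p = 0.016), and fell short of the threshold once SSC PDGF- replicate 2 or 3 was omitted (adjusted p up to 0.073). LIN54, a DNA-binding subunit of DREAM, had an LFC of 0.83 (edgeR adjusted p = 0.025), called in 1 of 6 fits with a library left out, the one without SSC PDGF- replicate 1. E2F2, an activator E2F, was at 1.27 ± 0.539 CPM with PDGF and 6.04 ± 1.03 CPM without (LFC -2.25, SE 0.37, edgeR adjusted p = 0.0054). E2F1, which is itself an E2F target, differed by -0.06 (edgeR adjusted p = 0.90). The pocket proteins RBL1 and RBL2 had values of 0.38 and 0.36 and did not pass (edgeR adjusted p = 0.21 and 0.16).

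None of 6 late G1 cyclins and kinases and none of 12 E2F target genes of S phase entry passed the edgeR threshold, nor did any with DESeq2 or limma-voom. Both lists are short, and edgeR called 7.61% of all genes tested higher and 10.7% lower, so few calls would stand in lists of this size at the rate of all genes. At an unadjusted p under 0.05, 1 gene of the former list was higher, 1 was lower and 0 of the latter passed, while the replicate block called 3 higher and 1 lower in the former and 4 higher and 1 lower in the latter, where it called 31.1% of all genes higher and 29% lower. Their median LFC values were 0.18 and 0.13. CCNE1, the cyclin that follows the D cyclins, was at 30.04 ± 2.12 CPM with PDGF and 25.2 ± 3.76 CPM without (LFC 0.25, edgeR adjusted p = 0.34). CCNA2, the S phase cyclin, had an LFC of 0.50 (edgeR adjusted p = 0.095, or 6.6e-06 with the replicate block). CCNA1, the germ cell A-type cyclin, was low throughout, at 1.30 ± 0.410 CPM with PDGF and 2.71 ± 0.967 CPM without (LFC -1.06, edgeR adjusted p = 0.11). PCNA, the clamp of the replication fork, and MCM2, a subunit of the replicative helicase, had values of 0.22 and 0.02 (edgeR adjusted p = 0.33 and 0.93).

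Of 14 genes for the turnover of D cyclins and p27, 1 was lower, where 10.7% of all genes tested were lower. FBXW7, a ubiquitin ligase subunit that marks cyclin E for degradation, was at 37.4 ± 6.70 CPM with PDGF and 64.9 ± 13.6 CPM without (LFC -0.79, edgeR adjusted p = 0.031), and kept its call only without SSC PDGF+ replicate 1 or without SSC PDGF- replicate 1. AMBRA1, through which D cyclins are degraded, was at -0.33 and SKP2, through which p27 is, at 0.14 (edgeR adjusted p = 0.27 and 0.71). Of 5 genes for kinase activation and assembly, 1 was higher, where 7.61% of all genes tested were higher. That higher row was HSP90AB1 (LFC 1.24, edgeR adjusted p = 0.011), at 48.7 ± 13.7 CPM with PDGF and 20.7 ± 3.1 CPM without (SD, n = 3 each). Its counts equalled those of SLC29A1 in all libraries, so the reads cannot be assigned to either gene.

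Among 17 transcription factors upstream of the inhibitors, 2 were higher and 2 lower, where 7.61% of all genes tested were higher and 10.7% lower. FOXO1, a forkhead factor that induces CDK inhibitors when growth factor signaling is low, was at 59.3 ± 9.44 CPM with PDGF and 151 ± 21.4 CPM without (SD, n = 3 each; LFC -1.35, SE 0.17, edgeR adjusted p = 0.0019). It kept its call whichever library was omitted. MXI1, an antagonist of MYC, had an LFC of 0.83 (edgeR adjusted p = 0.021) and MYC one of 0.51 (edgeR adjusted p = 0.047). MXI1 was called in 2 and MYC in 1 of 6 fits with a library left out, MXI1 without replicate 1 of either group and MYC without SSC PDGF+ replicate 1. Among the 13 genes of a further fixed list, TIGAR and FAS were higher and SESN2 and ZMAT3 lower. TIGAR is the row identical to CCND2, and FAS shared its counts with STAMBPL1. SESN2, a stress-induced inhibitor of mTORC1 signaling, was at -0.62 and ZMAT3, an RNA-binding protein, at -0.54 (edgeR adjusted p = 0.032 and 0.039), both called in 1 of 6 fits with a library left out, the one without SSC PDGF- replicate 1. FAS (LFC 0.82, edgeR adjusted p = 0.030) was called in 2, without replicate 1 or 3 of SSC PDGF-.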

How the data were processed

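The authors deposited expected counts per gene for 6 libraries, without normalization; 34 values of 13 genes were not whole, and all were rounded. The submitters' processing notes name fastp, HISAT2 2.1.0, SAMtools and featureCounts 2.0.1, and the builds Mmul_10 and Mmul_8.0.1 without saying which made the counts, so no coordinates are given. Annotation and strand setting are not given in the sources used here. Among genes with at least 20 counts, 405 sets (850 genes) had identical counts in all libraries. Expression was tested with edgeR 4.0.16 in R 4.3.3 (filterByExpr, TMM, quasi-likelihood test, no block), and alternatives used limma 3.58.1 and DESeq2 1.42.0. SE was obtained as the size of LFC divided by the square root of F. The steps were tested on simulated counts. Members and lists were chosen with earlier results of these data known, and TSPAN31, BYSL and the pathway genes given as not past the threshold were named after their values were seen. Otherwise the named genes are the members, up to 3 called genes per list and direction, and the 3 nearest profiles (average log2 CPM of at least 4). Same-numbered libraries deviated together from their group means (r = 0.67, 0.29 and 0.31 across genes), and numbers follow the batches in the labels, so the numbers were taken to pair the libraries. Within batch 2 the differently numbered pairs were as close (r = 0.32 and 0.30), so the values show the shared batch and do not tell replicates 2 and 3 apart. RefSeq lengths and GC content of Mmul_10 covered 17013 genes, 11237 of them tested. Promoters were not analysed here, and 1 gene of the lists is counted but not reported by name or drawn. Figures used matplotlib 3.10.9 under Python 3.11.15.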

Additional observations from a re-analysis of the deposited data

Results flagged for a closer look

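CDK6 had opposite directions in the 2 batches. In batch 1 the library with PDGF was higher by 0.72 on the log2 scale, and in batch 2 both libraries with PDGF were below both libraries without, with a mean difference of -0.10. The difference between the batches was -0.82 in an edgeR fit with a term for group and batch together, and it did not pass (adjusted p = 0.97, where 0 of 11539 genes were called and 526 had an unadjusted p under 0.05). Batch 1 holds 1 library per group.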

How the results depend on the processing

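CCND1, CDKN1C and the row that CCND2 shares with TIGAR kept direction and call under every alternative that could test them. CDKN1C, with 8 and 9 counts in SSC PDGF+ replicates 1 and 2, was not tested under a minimum of 10 counts in every library. For CDK6 the log2 fold change turned to -0.12 in batch 2 alone and -0.034 with the replicate block and GC and length correction, and ranged from -0.030 (without SSC PDGF+ replicate 1) to 0.32 with a library left out. The replicate block changed the calls of CCND3, CDKN2C and the lists, as given above, and of no other member.
The 2 lower members became 1 with no count filter, with 10 counts in every library, with replicates 2 and 3 of each group summed, at an adjusted p under 0.01 and at an absolute log2 fold change of at least 1, and 1 to 3 with a library left out. They became 3, with CDKN2C, under upper quartile factors, no normalization factors and DESeq2, and also with the replicate block (with or without GC and length), batch as a term and batch 2 alone. Where the count was 1, CDK4 was the lost call, other than under the 10-count minimum, where CDKN1C was not tested. Summed replicates with batch as a term, a setting chosen after seeing the data, gave 4 higher members, CDK6 among them (0.29, edgeR adjusted p = 0.043). With so few summed columns and a batch term, little is left to measure the spread, so its calls carry little weight. CDK6 differed by 0.72 in batch 1, with 1 library per group, and by -0.10 in batch 2.
Of the other G1 genes, 35 were higher and 20 lower with the replicate block, 39 and 16 with GC and length added, 34 and 21 with batch as a term, 26 and 20 in batch 2 alone, 2 (E2F7 and TIGAR) and 2 (E2F2 and FOXO1) with summed replicates, 35 and 21 with batch added to these, 2 and 3 at 0.01, 3 and 2 at the fold minimum, and 4 to 11 and 3 to 9 with a library left out. The replicate block called 31.1% of all genes tested higher and 29% lower. The share over all genes was not counted for GC and length, batch as a term, batch 2 alone, summed replicates or left-out libraries. Counts under these settings therefore cannot be read as particular to the G1 genes. Upper quartile factors moved the share of higher calls among all genes from 41.7% to 32.5%. The causes were not tested.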
